A study of Mus musculus with 5 samples.

Results

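Myelin genes were examined in mouse glioma against normal mouse brain. The set holds 9 genes: Mbp, Mobp, Mal, Mog, Opalin, Cldn11, Cnp, Ermn and Ppp1r14a. They were taken from a fixed list of symbols, and each probe was assigned through the RefSeq transcript record that the array design gives for it. This gave 14 of the 55681 probes other than controls, and 9 of the 21149 genes named on the array. All 9 genes were among the 16891 tested, because each was represented by a probe well above background on at least 2 arrays. Ppp1r14a encodes an inhibitor of myosin phosphatase rather than a building block of the sheath, so the name myelin structural protein describes the other genes better than this one.

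Total RNA was hybridised to single-colour Agilent SurePrint G3 mouse arrays, 1 array per sample. The samples were 3 gliomas from brains at postnatal day 150 in a MADM model, for mosaic analysis with double markers, a genetic method in which recombination between chromosomes leaves sparse, colour-marked mutant cells. Against them stood 2 normal brains of the same age. The labels used here name no mutated allele, Cre driver, strain, sex or brain region for either group, nor whether each sample is a different animal, and the p-values speak only of how much the 5 samples vary. Between 61.5% and 70.3% of spots were well above background, no spot other than controls was saturated, and all arrays lay on 1 slide, the gliomas in row 1 and the normal brains in row 2, so that slide row and group cannot be told apart. A probe for Xist, the RNA of X-chromosome silencing, was well above background only on glioma 3, where it read 1.23, beside -7.87 and -8.22 on gliomas 1 and 2, against -7.41 and -7.31 on normal brains 1 and 2. Levels here and below are log2 signals relative to the 75th percentile of the same array.

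Myelin is the multilayered membrane that oligodendrocytes wrap around axons. Its layers are held together on the cytoplasmic side by basic proteins such as those of Mbp and Mobp, and sealed by claudin-based junctions, while other proteins sit on the outermost surface or in the cytoplasm-filled loops. Oligodendrocyte progenitors express these genes at low levels. Cnp and Mbp are raised as the cells differentiate, and Mog, Opalin and Mal belong to the late, myelinating stage.

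In glioma 7 of the 9 genes fell and none rose, beside 27.8% of all genes tested that were called lower and 51.4% that were called in either direction. By probe, 12 of the 14 were called lower, beside 26.2% of the named probes tested. A call is an adjusted p under 0.05 in the limma fit across all genes with Benjamini-Hochberg adjustment. The median log2 change was -2.52 over the 9 genes and -0.05 over the 16891 genes tested. Opalin, Mal, Mobp and Ppp1r14a fell by over 8-fold, while 4.18% of all genes tested were lower by over 8-fold. Without glioma 3, Opalin (-4.44) and Mal (-3.02) still passed that size, whereas Mobp (-2.69) and Ppp1r14a (-2.20) did not. Mog fell by 5.74-fold, Cldn11 and Mbp fell less, and Cnp and Ermn did not pass the test. Mbp and Ermn were each judged by their brightest probe over all arrays. Another Mbp probe fell by 12.5-fold and another Ermn probe by 10.5-fold. The 3 glioma values lay below both normal brain values in 8 of the 9 genes, beside 38.8% of all genes tested that were lower without overlap. Among the 8 was Cnp, where glioma 2 (4.931) lay barely below normal brain 1 (4.935). In bulk RNA, fewer oligodendrocytes and less myelin RNA per oligodendrocyte cannot be told apart. Each change is glioma minus normal brain, ± the standard error of the fit, with n = 3 and n = 2.

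**Figure D1:**
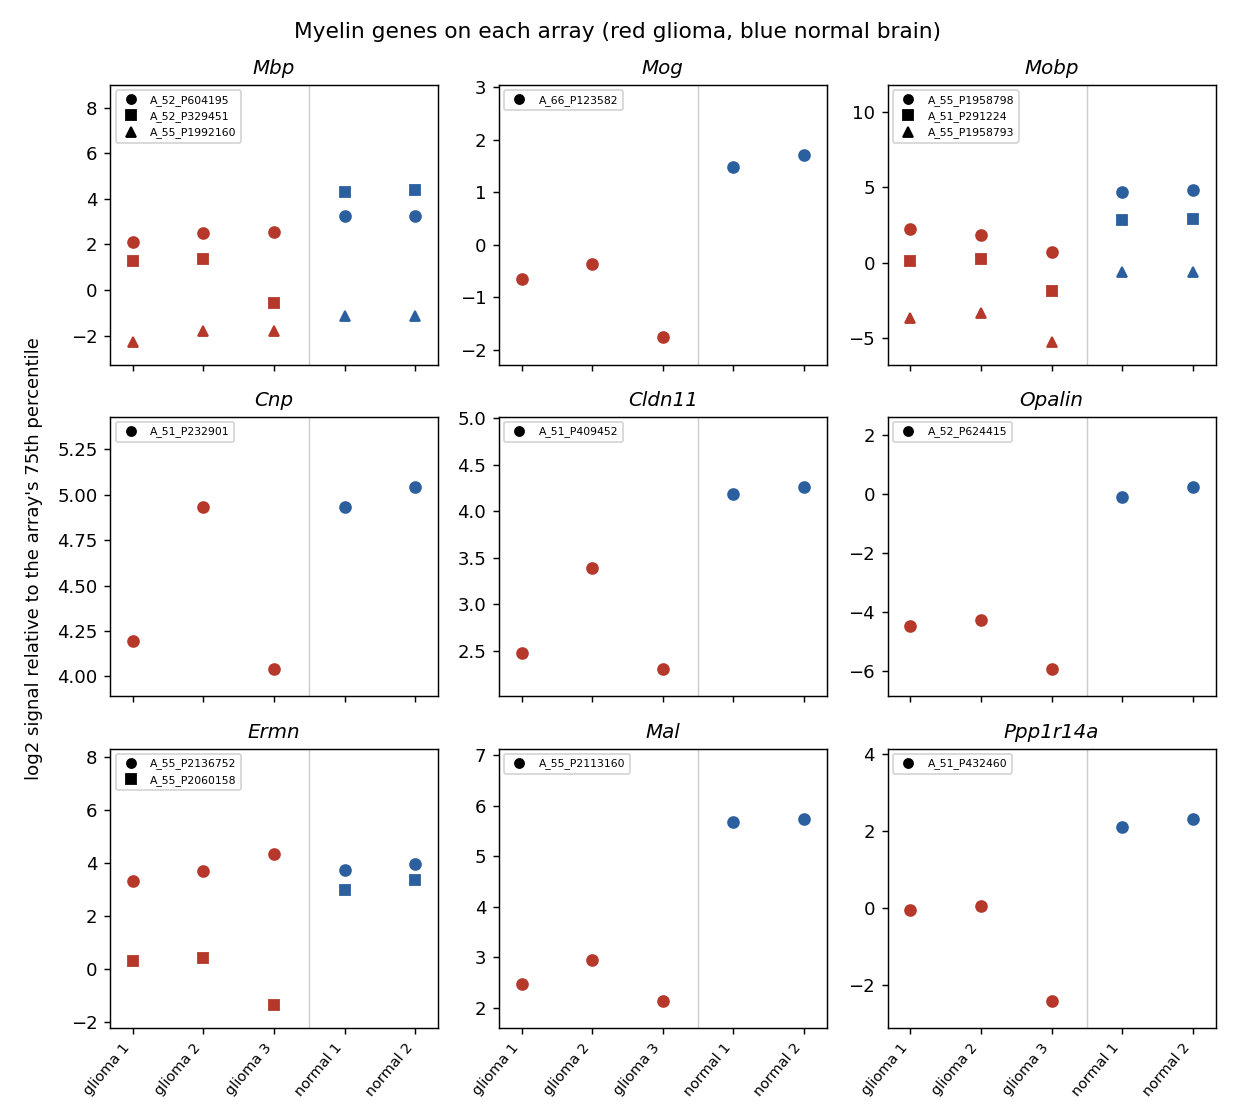
Signal of each probe of the myelin genes on each array, as log2 relative to the array's 75th percentile, with gliomas in red on the left and normal brains in blue on the right of each panel. Panels have their own vertical scales, and marker shapes separate the probes of a gene. In Opalin the gliomas sit between -5.93 and -4.27, below the normal brains at -0.10 and 0.26, whereas in Cnp the highest glioma, at 4.93, lies beside the normal brains at 4.94 and 5.04. The Opalin value of -5.93 is that of glioma 3, where the probe was not well above background, and shows no measured level.

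Among genes of compact myelin, Mobp, the myelin-associated oligodendrocytic basic protein, read 2.24, 1.86 and 0.67 on gliomas 1 to 3, against 4.68 and 4.80 on the normal brains. The groups did not overlap, and glioma 3 was lowest. The change was -3.15 ± 0.48, an 8.87-fold fall (adjusted p = 0.00485, limma). The other 2 Mobp probes on the array also fell, with changes of -3.37 ± 0.69 and -3.47 ± 0.60.

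Mal, which encodes a small proteolipid of lipid-rich membrane domains, read 2.46, 2.93 and 2.13 on gliomas 1 to 3, against 5.68 and 5.74 on the normal brains. Its gliomas lay close together and far below both normal brains. The change of -3.21 ± 0.26, a 9.22-fold fall, had the smallest adjusted p of the 9 genes (0.000779, limma).

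Mbp, myelin basic protein, which zips the cytoplasmic faces of the membrane together, is represented by 3 probes that fell by different amounts. The probe used for the gene, A_52_P604195, was the brightest over all arrays and read 2.13, 2.50 and 2.57 on gliomas 1 to 3, against 3.24 and 3.25 on the normal brains. The groups did not overlap, but the change was small, at -0.85 ± 0.19, a 1.80-fold fall (adjusted p = 0.0152, limma). Another probe, A_55_P1992160, gave -0.83 ± 0.20 (adjusted p = 0.027 over all probes, limma). The remaining probe, A_52_P329451, read 1.26, 1.36 and -0.57 on gliomas 1 to 3, against 4.28 and 4.38 on the normal brains. On both normal brains it was brighter than the probe used for the gene. The change of A_52_P329451 was -3.64 ± 0.63, a 12.5-fold fall (adjusted p = 0.00889 over the 38682 probes tested, limma).

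The 3 Mbp probes therefore lay 2.82 apart on the log2 scale, where the 4600 genes with several detected probes had a median spread of 0.29 and 5.17% of them spread by over 2. Probes A_52_P329451 and A_55_P1992160 carry the same RefSeq record, so the record does not separate the large fall from the small one. Glioma 3 was lowest of the gliomas on A_52_P329451 only, where its difference from the mean of gliomas 1 and 2 was -1.88. On the other Mbp probes that difference was 0.26 and 0.22. Mbp is known to give several transcripts, some from an upstream promoter and expressed outside oligodendrocytes. The probe sequences were not used here, and which transcripts each probe matches was not tested.

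Mog, the myelin oligodendrocyte glycoprotein of the outermost sheath surface, read -0.65, -0.36 and -1.76 on gliomas 1 to 3, against 1.48 and 1.71 on the normal brains. It was lower in every glioma, and lowest in glioma 3. The change was -2.52 ± 0.45, a 5.74-fold fall (adjusted p = 0.0077, limma). Opalin, a sialylated membrane glycoprotein found in the central nervous system of mammals, showed the largest change of the 9 genes. It read -4.45, -4.27 and -5.93 on gliomas 1 to 3, against -0.10 and 0.26 on the normal brains. On glioma 3 its probe was not well above background. The fitted change was -4.96 ± 0.54, a 31.1-fold fall (adjusted p = 0.00171, limma), and -3.46 when background was corrected with normexp and an offset, which shrinks changes of dim probes.

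Cldn11, the claudin that forms the radial tight junctions of myelin, read 2.48, 3.39 and 2.31 on gliomas 1 to 3, against 4.18 and 4.26 on the normal brains. Glioma 2 kept more of it than the other gliomas, and all 3 were below normal brain. The change was -1.50 ± 0.36, a 2.82-fold fall (adjusted p = 0.0199, limma). Claudin 11 is also made by meningeal cells. Of 10 meningeal fibroblast markers 7 fell and none rose, beside 27.8% of all genes tested that were called lower. Their mean level was -2.31 to -1.55 over the gliomas and -0.09 to -0.01 over the normal brains. By that mean level, as in Cldn11, glioma 2 was highest and glioma 3 lowest of the gliomas, but single markers did not all have this order. Their part in the Cldn11 result was not tested.

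Cnp, the cyclic nucleotide phosphodiesterase of the cytoplasm-filled myelin loops, read 4.20, 4.93 and 4.04 on gliomas 1 to 3, against 4.94 and 5.04 on the normal brains. Glioma 2 came to the level of normal brain, and the other gliomas lay below it. The change of -0.60 ± 0.30 did not pass (adjusted p = 0.152, limma), with a confidence interval of the fit from -1.37 to 0.17. Without glioma 2 the change was -0.87 and passed (adjusted p = 0.0166, limma).

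Ermn encodes ermin, an actin-binding protein of mature oligodendrocytes, and its 2 probes gave different answers. The brighter probe, A_55_P2136752, read 3.32, 3.70 and 4.34 on gliomas 1 to 3, against 3.75 and 3.96 on the normal brains. Here the groups overlapped, glioma 3 was highest, and the change of -0.07 ± 0.33 did not pass (adjusted p = 0.874, limma). The other probe, A_55_P2060158, read 0.30, 0.41 and -1.36 on gliomas 1 to 3, against 3.00 and 3.35 on the normal brains. It fell by 3.39 ± 0.59, or 10.5-fold (adjusted p = 0.00894 over all probes, limma). Both probes carry the same RefSeq record, and their changes differed by 3.32 on the log2 scale. The difference of glioma 3 from the mean of gliomas 1 and 2 was 0.83 on the brighter probe and -1.72 on the other. With the detected probes of each gene averaged, Ermn passed as lower at -1.73 (adjusted p = 0.00261, limma) and Mbp fell by 1.77.

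Ppp1r14a, the myosin phosphatase inhibitor, read -0.03, 0.07 and -2.40 on gliomas 1 to 3, against 2.11 and 2.32 on the normal brains. Glioma 3 was far below the other gliomas. The change of -3.01 ± 0.81 was an 8.04-fold fall (adjusted p = 0.0297, limma), and without glioma 3 it was -2.20 (adjusted p = 0.00208, limma). The gene is also expressed in smooth muscle. Of 9 smooth muscle and pericyte markers tested 8 fell and none rose, beside 27.8% of all genes tested that were called lower. Those that fell included Myh11, smooth muscle myosin (-2.53), Mylk, its activating kinase (-1.95), and the contractile gene Tagln (-1.65). Acta2, smooth muscle actin, fell by 1.10. The mean level of the 9 markers was -2.58 to -2.07 over the gliomas, lowest in glioma 1, and -0.93 to -0.83 over the normal brains. Their part in the Ppp1r14a result was not tested.

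The calls of Mbp, Cldn11 and Ppp1r14a were lost without either normal brain array, that of Mog without normal brain 2 (adjusted p = 0.0504, limma) and that of Cldn11 without glioma 1 (adjusted p = 0.0563, limma), so that 4 and 3 of the 9 genes were called lower without normal brains 1 and 2. Over all genes tested, the share called lower was then 15.5% and 15.8%, beside 27.8% with all arrays. Without scaling, as the authors deposited them, the values put the median change of all genes at 0.31, and 5 of the 9 genes were called lower, beside 18.9% of all genes tested. Mbp (-0.49) and Cldn11 (-1.14) did not pass there.

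**Figure D2:**
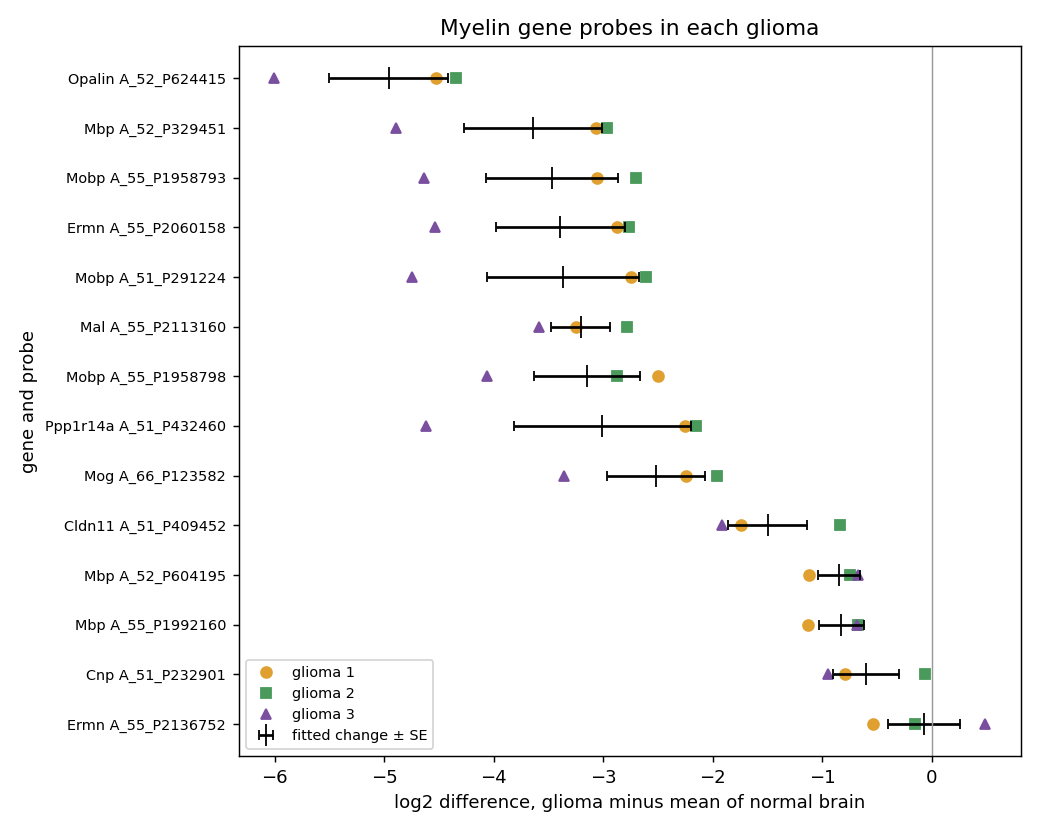
Difference of each glioma from the mean of the normal brains for every probe of the myelin genes, in log2 units, with the fitted change and its standard error as a black bar. Differences run from -6.00 for Opalin in glioma 3, where its probe was not well above background and the point shows no measured level, to 0.49 for the brighter Ermn probe in glioma 3, and glioma 3 is the lowest glioma on 11 of the 14 probes.

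The gliomas differed among themselves in their myelin RNA. Glioma 3 was the lowest glioma on 11 of the 14 probes, and glioma 2 the highest on 11, where 3 genes count with several probes. Glioma 2 was highest in 6 of the 9 genes, and the share over all genes was not computed for it. By gene, glioma 3 was lowest in 7 of the 9, where 38.5% of all genes tested were lowest on that array. It lay more than 1 log2 unit below the mean of gliomas 1 and 2 in 4 of the 9 genes, against 5.40% of all genes tested. These 4 were Mobp, Mog, Opalin and Ppp1r14a, with differences of -1.38, -1.26, -1.57 and -2.42. The value of Opalin is no measured difference, because its probe was not well above background on glioma 3. In Mal, Cldn11 and Cnp the corresponding differences were smaller, at -0.57, -0.63 and -0.52. Glioma 2 exceeded glioma 1 by 0.91 in Cldn11 and by 0.73 in Cnp. These comparisons of single samples have no test. The spread between normal brains was small throughout, from 0.01 for Mbp to 0.36 for Opalin.

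Promoter sequences are shown for Mobp, Opalin, Cnp and Mal, which cover a large fall, the largest fall, a change that did not pass and the fall with the smallest p. They are RefSeq windows of the 250 bases before the annotated start on build GRCm38.p6, a build other than the mm9 that the array files name. RefSeq windows were matched for 8 of the 9 genes, all but Mbp. Capitals mark ACAAAG, a core recognised by Sox factors, and CTGGCAC, the core of sites bound by the myelin regulator Myrf, on either strand. These motifs were chosen with the results known.
Mobp promoter, chr9:120149492-120149741, plus strand: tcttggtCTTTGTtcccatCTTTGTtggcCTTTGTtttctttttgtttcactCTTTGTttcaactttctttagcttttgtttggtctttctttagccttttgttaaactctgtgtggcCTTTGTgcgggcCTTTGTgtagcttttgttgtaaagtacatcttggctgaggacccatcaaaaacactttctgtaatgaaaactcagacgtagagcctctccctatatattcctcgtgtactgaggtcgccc
Opalin promoter, chr19:41077114-41077363, minus strand: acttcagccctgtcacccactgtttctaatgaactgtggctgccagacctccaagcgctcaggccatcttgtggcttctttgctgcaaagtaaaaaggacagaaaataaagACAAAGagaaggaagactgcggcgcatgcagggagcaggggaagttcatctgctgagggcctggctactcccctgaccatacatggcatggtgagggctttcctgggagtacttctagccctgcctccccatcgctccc
Cnp promoter, chr11:100574689-100574938, plus strand: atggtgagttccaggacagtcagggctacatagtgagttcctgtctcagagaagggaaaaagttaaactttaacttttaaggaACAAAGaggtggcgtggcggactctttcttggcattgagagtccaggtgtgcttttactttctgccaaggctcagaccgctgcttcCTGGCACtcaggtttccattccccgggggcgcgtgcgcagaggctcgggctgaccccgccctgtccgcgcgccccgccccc
Mal promoter, chr2:127656696-127656945, minus strand: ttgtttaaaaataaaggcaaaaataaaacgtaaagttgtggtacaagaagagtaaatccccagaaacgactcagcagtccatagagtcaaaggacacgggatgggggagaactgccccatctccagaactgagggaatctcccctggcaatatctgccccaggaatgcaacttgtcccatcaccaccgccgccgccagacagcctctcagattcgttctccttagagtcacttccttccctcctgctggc

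ACAAAG was found in 3 of the 8 windows, Mobp, Opalin and Cnp, and in 16.5% of the 32851 windows of the same length. Mobp held 6 matches, all on the reverse strand between 243 and 115 bases before the start. No other window of the 32851 held as many. CTGGCAC was found in the Cnp window alone among the 8 and in 4.19% of all windows. A further Sox-type core, ACAATG, was found in the Ermn window alone among the 8 and in 3512 of the 32851 windows. The windows of Cldn11 and Ppp1r14a were rich in CpG, with 19 and 18 such dinucleotides against a median of 6, and those of Mog and Ermn had 2 and 3. Matches describe these letters in these windows only.

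Other genes of the sheath did not all follow. Of 20 further myelin proteins 7 fell and 4 rose, with a median of -0.13, beside 27.8% of all genes called lower and 23.6% called higher. Tppp, which bundles microtubules, fell by 3.33 ± 0.24 (adjusted p = 0.000626, limma). The genes that rose were Pmp22, a peripheral myelin protein also made by many other cells (2.11), the tetraspanin Cd9 (2.08), the junctional adhesion molecule Jam3 (1.44) and the membrane protein Pllp (0.72).

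Mag, the myelin-associated glycoprotein next to the axon, varied more between the gliomas than it did between the groups. It read 5.33, 7.74 and 3.15 on gliomas 1 to 3, against 5.18 and 5.32 on the normal brains. Glioma 2 was far above normal brain, glioma 3 far below, and glioma 1 at its level, so that the change of 0.15 ± 1.32 did not pass (adjusted p = 0.93, limma). Hamp2, the next tested gene on chromosome 7, read 2.20, 0.62 and -1.79 on gliomas 1 to 3, against -4.62 and -5.72 on the normal brains. Cd22, the nearest tested gene on the other side of Mag, did not pass (-0.83). Ppp1r14a lies on the same chromosome with 61 tested genes between it and Mag, and its nearest tested neighbours Spint2 (-0.27) and Dpf1 (-0.84) did not pass.

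Enzymes of myelin lipids were mixed as well. Of 10 such genes 3 fell and 2 rose, with a median of 0.05, near the 27.8% of all genes called lower and 23.6% called higher. Aspa, which releases acetate for lipid synthesis, fell by 3.29 ± 0.65 (adjusted p = 0.0108, limma), as did Fa2h, which hydroxylates the fatty acids of galactolipids (-1.77), and the sphingomyelinase gene Smpd1 (-1.03). Gal3st1, the sulfatide synthase (1.16), and the fatty acid elongase gene Elovl1 (0.54) rose. Among 19 tested genes of metabolism and signalling in mature oligodendrocytes, 10 fell and 1 rose, with a median of -1.72. The receptor gene Gpr37 (-3.64), the carbonic anhydrase gene Car2 (-3.15) and Ndrg1, a gene mutated in a human demyelinating neuropathy (-3.15), fell, while the actin-severing gene Gsn rose by 0.55.

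Earlier stages of the lineage had the opposite balance, beside 23.6% of all genes tested called higher and 27.8% called lower. Of 12 genes of oligodendrocyte progenitors 11 rose, none fell and the median was 3.31, led by the proteoglycan gene Cspg4 (4.74), the growth factor receptor gene Pdgfra (4.56) and the protocadherin gene Pcdh15 (4.24). Of 12 genes of newly formed oligodendrocytes 8 rose and 1 fell, with a median of 0.92. The kinase gene Fyn (3.27), Lims2 (2.49) and Mpzl1 (2.37) rose, and Enpp6, a choline phosphodiesterase of cells starting to myelinate, fell by 1.01. The progenitor list had a mean level of 2.54, 2.47 and 2.54 on gliomas 1 to 3, against -0.56 and -0.60 on the normal brains.

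Of 10 lineage transcription factors 5 rose and 2 fell, beside 23.6% of all genes tested called higher and 27.8% called lower. The count that fell was thus near the share over all genes. Sox10, which activates myelin genes, rose by 2.82 ± 0.14 and the lineage factor Olig2 by 4.49 ± 0.17, whereas Tcf7l2 (-2.56) and Myrf, the regulator required for myelin gene expression (-1.61 ± 0.33, adjusted p = 0.0128, limma), fell, the probe of Myrf being well above background on 1 of the 3 gliomas and on both normal brains.

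**Figure D3:**
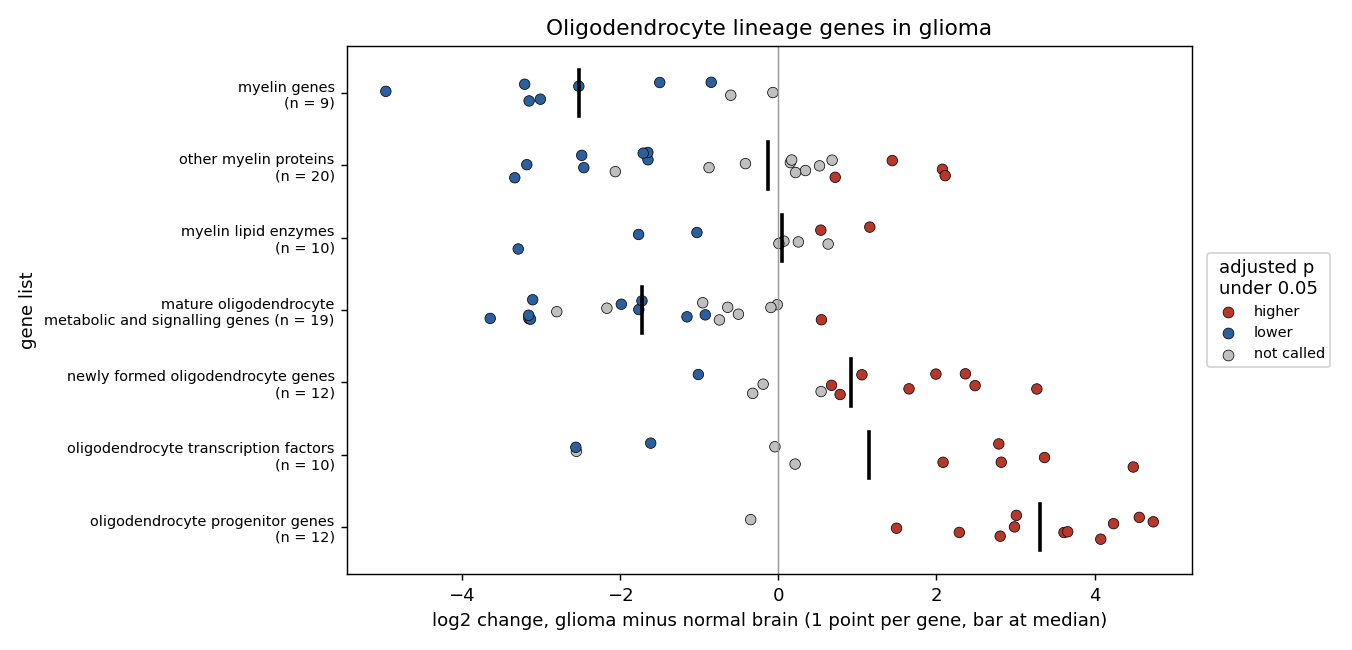
Fitted log2 change, glioma minus normal brain, of each tested gene in the lists of the oligodendrocyte lineage, with the median of each list as a bar and colours for genes called higher, lower or not called. Medians run from -2.52 for the myelin genes through -1.72 for mature oligodendrocyte genes and 0.92 for newly formed oligodendrocyte genes to 3.31 for progenitor genes. The other lists shown have medians of -0.13 (other myelin proteins), 0.05 (myelin lipid enzymes) and 1.15 (transcription factors).

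Markers of other cells are set beside the 27.8% of all genes tested called lower and the 23.6% called higher. Every tested neuron and choroid plexus marker fell, while the astrocyte, microglia and T cell counts were nearer these shares. Neuron markers fell in 12 of 12 cases, with a median of -3.25, including Nefm (-4.73) and Nefl (-4.67), neurofilament subunits, and Camk2a (-3.78), a synaptic kinase. Their mean level was 1.28 to 1.96 over the gliomas, lowest in glioma 2, and 4.83 to 4.84 over the normal brains. Astrocyte markers fell in 4 of 10 cases, among them the connexin gene Gja1 (-3.15), and rose in 1, Sox9 (1.58), with a mean level of 1.74 to 2.67 over the gliomas, lowest in glioma 3, and of 3.18 to 3.19 over the normal brains. Microglia markers rose in 3 of 10 cases, C1qa (2.02), Tyrobp (1.58) and Aif1 (1.48), and fell in 1, Itgam (-1.83), and their mean level of 2.70 to 4.07 over the gliomas was highest in glioma 2, beside 2.62 on both normal brains. The order of the gliomas in the microglia, astrocyte and meningeal fibroblast lists was that of the mean of the 9 myelin genes, which was 1.30, 1.64 and 0.66 on gliomas 1 to 3. Mature oligodendrocyte genes (1.20, 1.61 and 0.24), further myelin proteins (2.98, 3.03 and 2.46) and myelin lipid enzymes (1.87, 1.96 and 1.65) had this order too. The remaining lists had other orders. Choroid plexus markers fell in 10 of 10 cases, 3 of them (Ttr, Kcne2 and Prlr) not being well above background on every array, with a mean level of -4.63 to -3.99 over the gliomas and of 1.98 to 2.06 over the normal brains. Of 6 T cell markers tested 1 rose and 2 fell, with a mean level of -2.01 to -1.56 over the gliomas and of -1.73 to -1.12 over the normal brains.

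Genes of peripheral myelin, made by Schwann cells, did not move together: of 7 tested 1 rose (Prx, 2.05) and 1 fell (Drp2, -1.48). Over all genes tested, 23.6% were called higher and 27.8% lower. The part of these cell types in the myelin gene results was not tested.

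**Figure D4:**
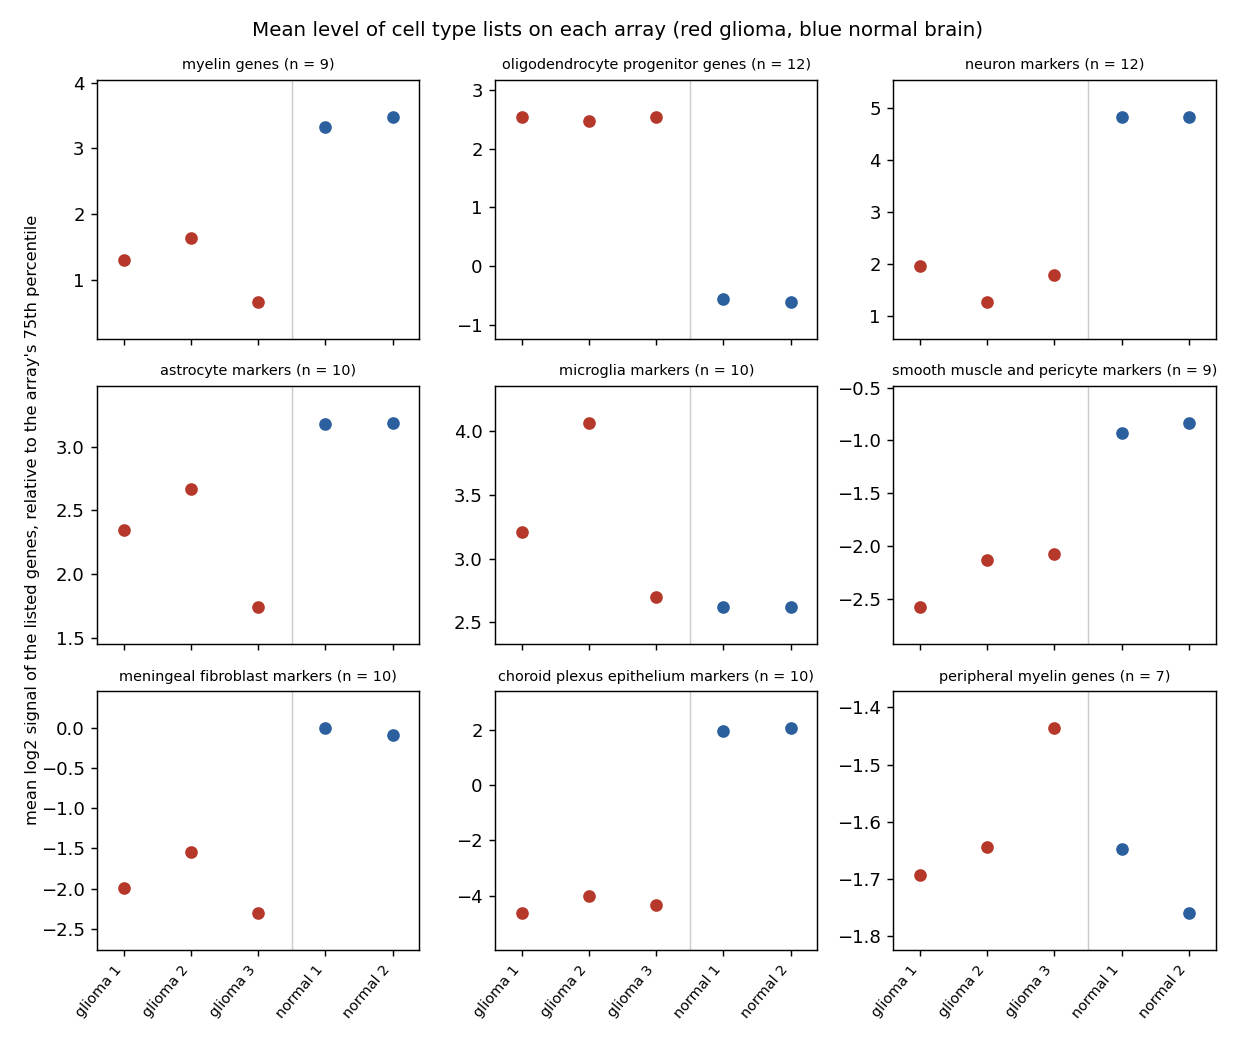
Mean log2 level of the tested genes of each cell type list on each array, relative to the array's 75th percentile, with gliomas in red on the left and normal brains in blue on the right and a vertical scale of its own in each panel. The myelin genes average 0.66 to 1.64 over the gliomas and 3.33 to 3.48 over the normal brains, and glioma 3 is the lowest glioma in the myelin, astrocyte, microglia and meningeal fibroblast panels.

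The genes most like the myelin set over the 5 arrays were found by the root mean square difference from the mean profile of the 9 genes, after each was set to 0 at its normal brain mean. The mean profile was -2.11, -1.77 and -2.74 on gliomas 1 to 3, against -0.08 and 0.08 on the normal brains. Among 14851 genes well above background on all arrays, Ubxn11, Mfsd13b, Dkk3, Tbc1d2 and Myo1d came closest, with differences of 0.055 to 0.098. Ubxn11 read -2.12, -1.75 and -2.67 on the same scale in gliomas 1 to 3, against -0.01 and 0.01 in the normal brains. Their log2 changes, which the choice by profile fixes, were -2.31 to -2.14.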

How the data were processed

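Spot intensity was deposited for each array. The submitters' processing notes name Agilent Feature Extraction 10.7.3.1, and the file headers list background subtraction and detrending statistics. Flags of 0 or 1 in those deposited files mark outlier spots and spots well above background. A deposited table of log2 values matched log2 of the unscaled processed signal on every array (median difference 0, correlation 1).

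Control and outlier spots were left out, each array was scaled to its 75th percentile, log2 was taken and spots of a probe were averaged. Of 55681 probes, 28019 were named through RefSeq accessions. Each gene took the values of its brightest probe, and was tested if that probe was well above background on 2 or more arrays. The test was limma's moderated test (limma 3.58.1, R 4.3.3), two-sided, with Benjamini-Hochberg adjustment over 16891 genes. On simulated data with 16891 genes, of which 100 were changed by each fold, the fit recovered 8.2% of 2-fold and 77% of 4-fold changes. Far more genes were called in the real data, so these rates do not carry over to the calls reported. Files were read and drawn with data.table (version 1.17.8), Python 3.11.15, pandas 2.3.3 and matplotlib 3.10.9. Normexp with an offset of 50 was run on median spot and background signals. Lists are described by counts and medians with no set test. The alternatives tried were other background correction, scaling, filters and probe rules, an intensity trend, the replicate block and leaving out each array. Named are the 9 genes and all their probes, up to 3 called genes per list and direction and a few others fixed with them, and the 5 nearest profiles. Hamp2, Cd22, Spint2 and Dpf1 are nearest neighbours. Pllp was named after its value was seen, and some genes the rule names are not reported here. The genes and lists were chosen with earlier results of these data known. Depth is given by signal over background, and the number of arrays limits precision.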

Additional observations from a re-analysis of the deposited data

How the results depend on the processing

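Of 125 values of single genes under the alternatives, 109 kept their direction and their side of the threshold. Mal and Mobp did so under all alternatives tried, and Opalin under the 13 that gave it a value, since it drops out where a probe must be well above background on all arrays. Not every value could change direction. The log2 change stays fixed where only the filter or the intensity trend differs and, for genes with 1 probe, where probes are averaged. The replicate block gave the same changes as leaving out glioma 3. Without 1 array, the number of genes called ran from 4630 to 9325, against 8687, and fell to 4630 and 4649 without normal brains 1 and 2, while the number of myelin genes called lower ran from 3 to 8, against 7. A lone normal brain is assumed there to vary like the gliomas. Without glioma 2 the 8 called included Cnp. The brighter Ermn probe, not called in the full fit, changed sign to 0.028 after quantile normalization and 0.29 in the authors' unscaled values, and without 1 array ran from -0.35 (glioma 3) to 0.17 (glioma 1), with 0.039 without normal brain 2, and the cause was not tested. Unscaled, 63.7% of all calls were higher, and 46.0% were after scaling, because the median of all genes was 0.31 there and -0.05 after scaling. The labels do not say whether replicate numbers pair the samples. Deviations from the group means correlated at 0.013 and 0.049 over genes for replicates 1 and 2. With 2 normal brains, the deviations of these are mirror images of each other, so the correlations cannot settle the pairing. With the replicate block, which takes glioma 3 out of the contrast because no normal brain has its number, 8263 genes were called and 7 of the 9 myelin genes fell. Dim probes limit Opalin and Myrf, which were not well above background on every glioma.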
